A study of Mus musculus with 6 samples.

Results

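The interferon response and antigen presentation genes are 41 listed mouse genes, 29 of the interferon response and 12 of antigen presentation. A member was taken as measured where a probe set of the array carried its symbol alone, and where a gene had several such probe sets the one with the highest mean over all 6 arrays was used. By that rule 37 of the 41 genes were measured, 27 of the interferon response and 10 of antigen presentation, out of 22180 genes in all. Ifi44 had no probe set under its own symbol, and Gbp2, Cd74 and H2-D1 had only probe sets that they share with another gene.

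The arrays hold RNA of gastrocnemius, a calf muscle, from 3 littermate control mice with a floxed TAK1 gene and from 3 mice whose TAK1 gene had been deleted in skeletal muscle for 3 weeks, with 1 array per mouse. TAK1, encoded by Map3k7, is a kinase downstream of cytokine and innate immune receptors that activates NF-kB, JNK and p38 signalling. The controls carry the floxed, undeleted allele. The sources used here do not give the age or sex of the mice, the Cre line or the deleted exons, and cells of the muscle other than fibres should keep the gene. The comparison asks which transcripts of these pathways differ between muscle with and without TAK1 in its fibres.

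Every value is a log2 level as deposited, so a difference of 1 is a 2-fold difference, and levels of different probe sets are not comparable with each other. Knockout and control were compared with limma over all 22180 genes, and a gene was called at an adjusted p under 0.05 (Benjamini-Hochberg). Of all genes 21 (0.0947%) were called. Array medians lay between 5.78 and 5.84. All 10 muscle fibre markers lay above background, with summed linear levels of 119640 to 125637 in control and 120541 to 121176 in knockout muscle. Background was taken as 5.85, below which lay the mean levels of 95% of 1394 receptor genes of smell and pheromone sensing (Olfr and Vmn symbols), which muscle should hardly express. Map3k7 itself was at 8.40 ± 0.07 in control mice and 8.22 ± 0.06 in knockout mice (SD, n = 3; log2 fold change −0.19, limma adjusted p = 0.686), so its level on this probe set does not settle whether the labels hold.

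Interferons are secreted when cells sense viral or misplaced nucleic acid. Type I interferons bind the receptor made of Ifnar1 and Ifnar2 and act through a complex that holds Stat2 and Irf9 and binds a promoter element called the interferon-stimulated response element. Interferon gamma binds Ifngr1 and Ifngr2 and raises, among others, the genes that load peptides onto class I molecules and the class II genes of antigen presenting cells. Mature muscle fibres are known for low class I levels in health, while class II molecules belong to macrophages, dendritic cells and B cells.

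The response element is visible in the members' promoters. The letters GAAA, any 2 bases and GAAA again were searched on both strands of the window from 250 bases before to 50 bases after each gene start in RefSeq (GRCm38.p6). Of the 41 members 29 had a window, and 13 of these (44.8%) held the letters, against 3.99% of 27025 genes and 3.44% of all 32851 windows. The share was 12 of 22 (54.5%) in the interferon response group and 1 of 7 in the antigen presentation group, where B2m held it. These stretches are shown because they belong to the 3 members whose groups did not overlap and to Isg15, a standard marker of the response. Each ends 1 base before the gene start and is written 5′ to 3′ on the gene's strand, with the response element letters in capitals (in Ifit1 and Rsad2 on the opposite strand). In B2m the second run of capitals is ATTGG, the Y box, which 37.4% of all windows hold.
Isg15, chr4:156200819-156200928, minus strand: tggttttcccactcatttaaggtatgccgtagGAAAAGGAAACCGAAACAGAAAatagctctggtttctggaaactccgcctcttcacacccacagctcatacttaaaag
Ifit1, chr19:34640759-34640888, plus strand: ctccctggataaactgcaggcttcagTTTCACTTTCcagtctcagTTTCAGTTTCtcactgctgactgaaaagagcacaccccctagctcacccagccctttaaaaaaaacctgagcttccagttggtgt
Rsad2, chr12:26456453-26456602, minus strand: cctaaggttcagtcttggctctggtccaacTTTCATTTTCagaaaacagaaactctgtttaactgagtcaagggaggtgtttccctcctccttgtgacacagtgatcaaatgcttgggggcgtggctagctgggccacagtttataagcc
B2m, chr2:122147537-122147686, plus strand: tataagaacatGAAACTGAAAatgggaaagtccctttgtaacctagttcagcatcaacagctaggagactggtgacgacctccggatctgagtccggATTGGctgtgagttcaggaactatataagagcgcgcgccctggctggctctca
Isg15 held 3 overlapping copies, which begin 78, 72 and 66 bases before the start, and Ifit1 held 2, at 104 and 85 bases. The 12 measured members with the element had a median log2 fold change of −0.03 (range −0.20 to 0.10), and the 14 measured members whose window lacks it had −0.0047. The 657 measured genes of the whole table with the element had a median of −0.00055, with 328 higher and 329 lower.

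None of the 37 members was called (limma), where 0.0947% of all genes were, and none had an unadjusted p under 0.05, where 8.04% of all genes did. A per-gene test without shared variances called 0 of all genes. It gave 2 members, Rsad2 and B2m, an unadjusted p under 0.05, where 7.27% of all genes had one. In the interferon response group 11 of 27 members had higher and 16 lower knockout means, and the median log2 fold change was −0.013. In the antigen presentation group 5 of 10 were higher and 5 lower, and the median was −0.0057. The median over all genes was −0.00032. The median size of the difference, whatever its sign, was 0.06 over the members and 0.10 over all genes. Groups did not overlap in 3 members (8.11%), against 13.4% of all genes. These 3 were B2m and Rsad2, lower in knockout (6.65% of all genes), and Ifit1, higher (6.74% of all genes).

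**Figure D1:**
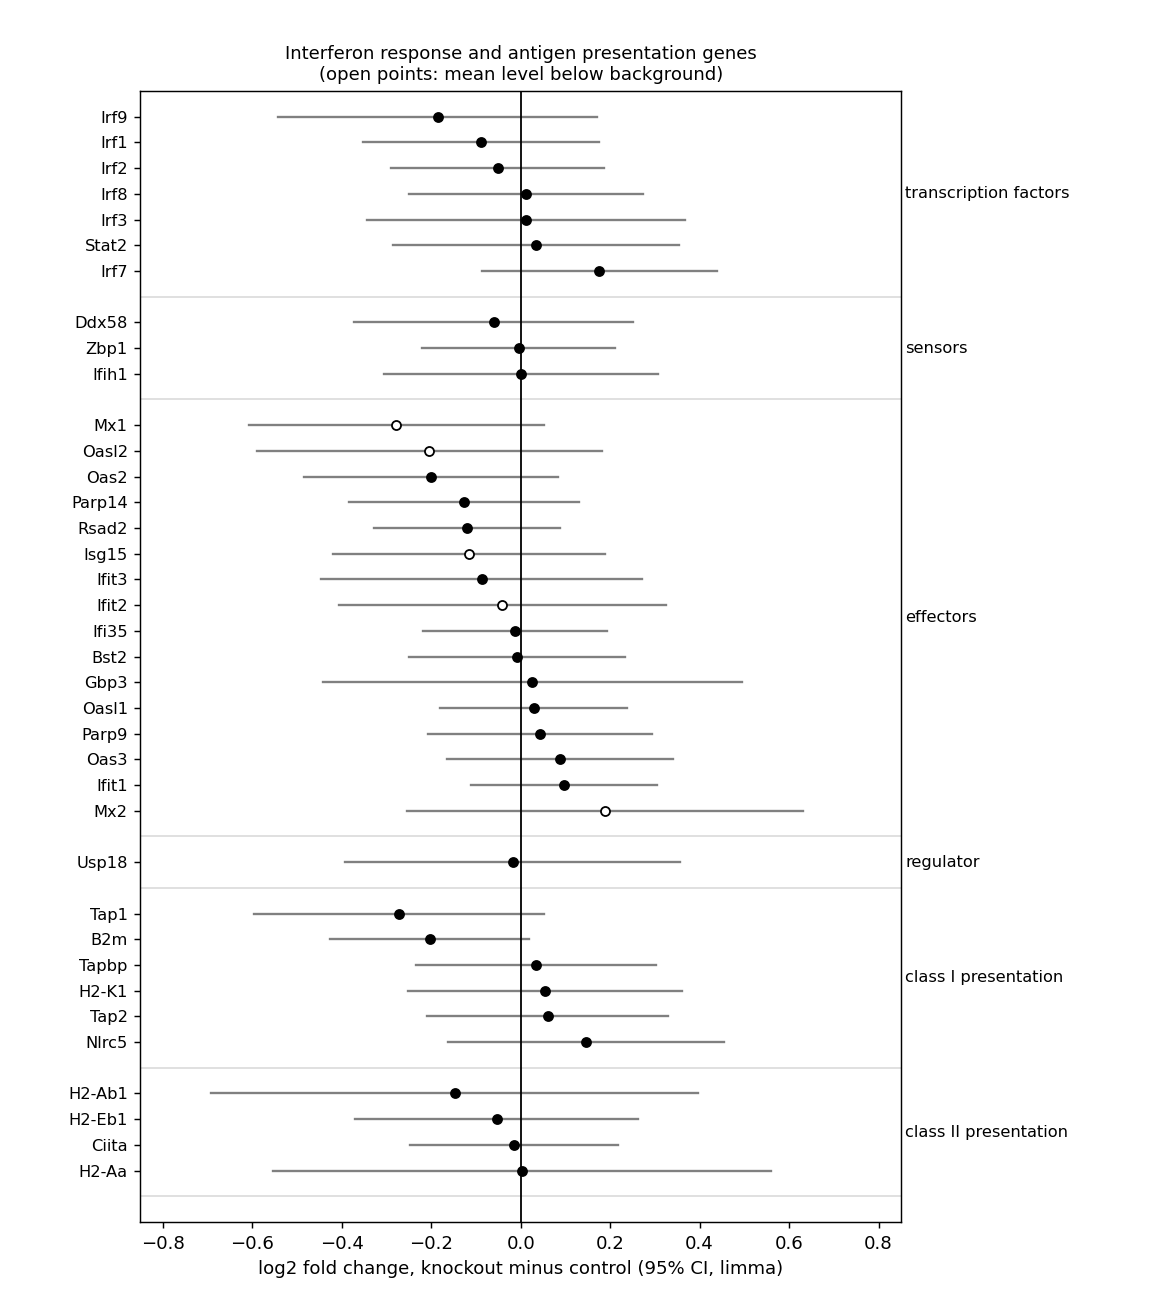
Log2 fold change of the 37 measured members, knockout minus control, by role, with the 95% confidence interval from limma. Every interval crosses 0, the points lie between −0.28 (Mx1) and 0.19 (Mx2), and the 5 open points are genes below background.

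For the 32 members above background the intervals bound how large a difference in the deposited signal could have been missed. The lowest end of a 95% interval among them was −0.69, a 1.62-fold decrease, for H2-Ab1, and the highest was 0.56, a 1.47-fold increase, for H2-Aa. These intervals are not adjusted for the number of genes. They hold for the signal as deposited, which is compressed towards background in dim genes. Of the 32 members 15 lay within 0.5 of background, so a larger difference in their RNA could have been missed. Of the 27 interferon response members 22 lay above background and 12 of those within 0.5 of it. The 5 dim members were Isg15, Ifit2, Oasl2, Mx1 and Mx2, so a difference in their RNA may not show in the deposited levels. Their log2 fold changes describe the deposited signal only and set no bound on the RNA. All 10 antigen presentation members lay above background, Tap2 at 5.86 only just, and Nlrc5 and Ciita within 0.5 of it. Among all genes 56.8% lay above it.

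**Figure D2:**
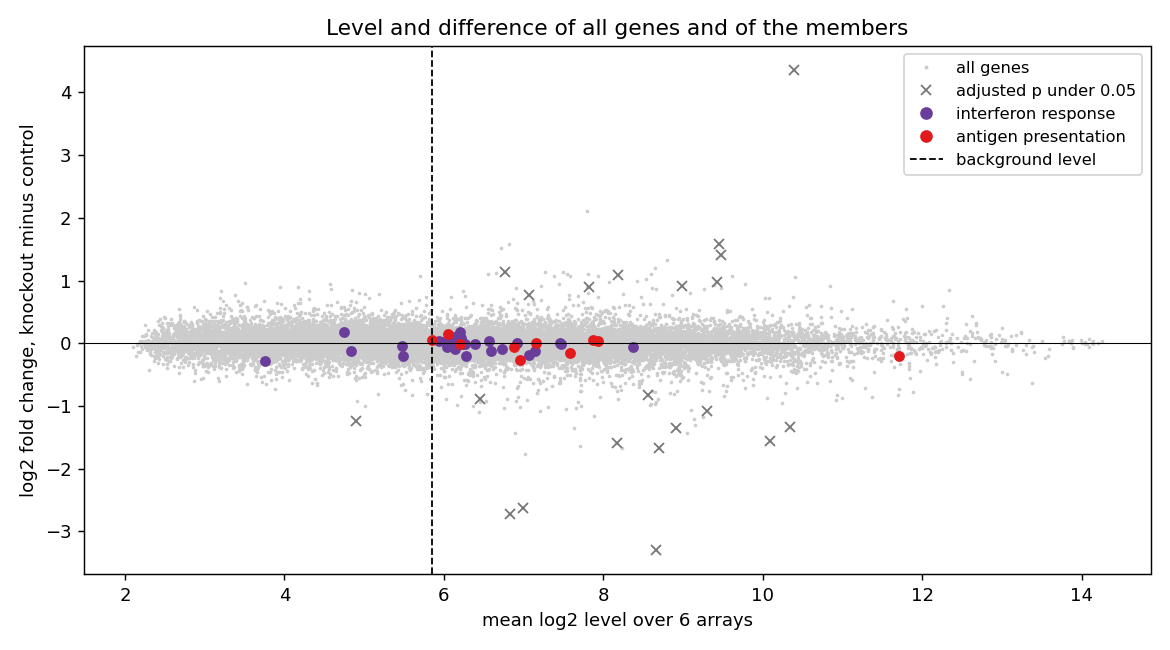
Log2 fold change (knockout minus control) against the mean log2 level over 6 arrays for all 22180 genes, with the 27 interferon response and 10 antigen presentation members in colour and the 21 called genes as crosses. The members lie in the band around 0, and 5 interferon response members sit left of the background level of 5.85.

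The 7 transcription factors of the pathway were all above background, but Stat2, Irf1, Irf7 and Irf8 lay within 0.5 of it. Of the 7 factors 4 were higher and 3 lower (median log2 fold change 0.01). Irf7, the factor that amplifies type I interferon production and is itself induced by it, had the highest log2 fold change of the factors. Its levels were 5.93, 6.29 and 6.12 in control and 6.31, 6.35 and 6.21 in knockout muscle (log2 fold change 0.18, 95% interval −0.09 to 0.44, limma adjusted p = 0.781). Knockout 3 lay below control 2, so the groups overlapped. Irf9, the DNA-binding part of the complex with Stat2, had levels of 7.23, 6.81 and 7.44 in control and 6.98, 6.90 and 7.03 in knockout muscle (log2 fold change −0.19, interval −0.54 to 0.17, adjusted p = 0.839). The control mice spanned the whole knockout range. Its partner Stat2 was at 6.01 ± 0.16 and 6.05 ± 0.23 (SD, n = 3).

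Irf3, the factor first activated by nucleic acid sensors, was at 6.92 ± 0.28 in control and 6.93 ± 0.17 in knockout muscle. Irf1, which drives class I genes after interferon gamma, had a log2 fold change of −0.09 (interval −0.35 to 0.18). Irf2, its competitor at the same DNA element, had levels of 8.46, 8.33 and 8.40 in control and 8.31, 8.24 and 8.49 in knockout muscle (log2 fold change −0.05, interval −0.29 to 0.19). Irf8, a factor of macrophages and dendritic cells, had a log2 fold change of 0.01, and its second probe set, below background, had 0.05.

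The cytosolic sensors were nearly level in the deposited signal, but only Ifih1 lay well above background, by 1.61 log2 units. Ddx58 and Zbp1 lay only 0.19 and 0.37 above it, where a difference in their RNA could have been missed. Ifih1 (MDA5), a sensor of long double-stranded RNA, had levels of 7.20, 7.47 and 7.71 in control and 7.49, 7.47 and 7.42 in knockout muscle. The 3 knockout values lay within the control range, and the log2 fold change was 0.00053 (interval −0.31 to 0.31). Ddx58 (RIG-I), a sensor of viral RNA ends, was at 6.07 ± 0.24 and 6.01 ± 0.11 (log2 fold change −0.06). Zbp1, which senses Z-form nucleic acid and can start necroptosis, was at 6.23 ± 0.05 and 6.22 ± 0.08 (log2 fold change −0.0041). Usp18, which removes Isg15 from proteins and dampens the type I receptor, had a log2 fold change of −0.02, with an interval of −0.39 to 0.36.

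Of the 16 measured effectors 6 were higher and 10 lower (median log2 fold change −0.03). Rsad2 (viperin), an antiviral enzyme, had levels of 6.62, 6.67 and 6.66 in control and 6.47, 6.54 and 6.59 in knockout muscle (log2 fold change −0.12, interval −0.33 to 0.09, limma adjusted p = 0.815). The highest knockout value lay below the lowest control value, by a gap smaller than the spread of the knockout group. Ifit1, which binds viral RNA lacking a host-type cap, had levels of 6.10, 6.04 and 6.09 in control and 6.24, 6.12 and 6.16 in knockout muscle (log2 fold change 0.10, interval −0.11 to 0.30, adjusted p = 0.855). Here all knockout values lay above the control values. Exact permutation tests of the 6 arrays gave p = 0.1 (two-sided) for both genes, the smallest that 3 against 3 can give. Any gene whose groups do not overlap gets this value with 3 against 3 arrays, so it adds nothing to the non-overlap. Among the 4 members whose response element is printed, Ifit1 was higher in value, and Rsad2, B2m and the dim Isg15 were lower. All but Isg15 were picked because their groups did not overlap. Of all 12 measured members with the element 5 were higher and 7 lower.

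The other effectors varied without separating the groups. Oas2, which makes the second messenger that activates RNase L, had levels of 6.56, 6.36 and 6.23 in control and 6.29, 6.26 and 6.01 in knockout muscle (log2 fold change −0.20, interval −0.48 to 0.08, adjusted p = 0.769). Its relative Oas3 had a log2 fold change of 0.09 and Oasl1 one of 0.03, so the family showed values on both sides of 0. Mx1, an antiviral GTPase, was dim on every array, at 3.96, 3.70 and 4.03 in control and 3.57, 3.41 and 3.88 in knockout muscle (log2 fold change −0.28, interval −0.61 to 0.05, adjusted p = 0.703). Mx2, its relative, was dim too and had a log2 fold change of 0.19, with 5.28 in knockout 3 and 4.46 to 4.77 on the other arrays. The dim Oasl2 had −0.20 (interval −0.59 to 0.18, adjusted p = 0.834).

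Isg15, the ubiquitin-like modifier, had levels of 5.07, 4.89 and 4.70 in control and 4.76, 4.96 and 4.60 in knockout muscle, all below background, with a log2 fold change of −0.12. Ifi35, a modulator of innate signalling, had 7.44, 7.53 and 7.44 in control and 7.50, 7.45 and 7.44 in knockout muscle (log2 fold change −0.013, interval −0.22 to 0.19). This probe set varied little over the 6 arrays, and its SD within groups was lower than that of 98.1% of all genes. Its second probe set, below background, had a log2 fold change of 0.09. Gbp3, a guanylate binding protein that attacks intracellular pathogens, lay at the other end, since 94.5% of all genes had a smaller SD, with 6.46 in knockout 1 and 5.63 in knockout 3.

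Bst2 (tetherin), which holds budding viruses on the cell surface, had a log2 fold change of −0.0079 (interval −0.25 to 0.23). Parp9 and Parp14, ADP-ribosyltransferases of the response, had 0.04 and −0.13. A second probe set that Parp9 shares with its partner gene Dtx3l had 0.07. Ifit2 (−0.04, dim) and Ifit3 (−0.09) were lower in value, unlike Ifit1. The probe set that Gbp2 shares with Gbp2b was at 6.62 ± 0.30 in control mice and 6.51 ± 0.31 in knockout mice (SD, n = 3; log2 fold change −0.12), and the 2 genes cannot be told apart there.

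**Figure D3:**
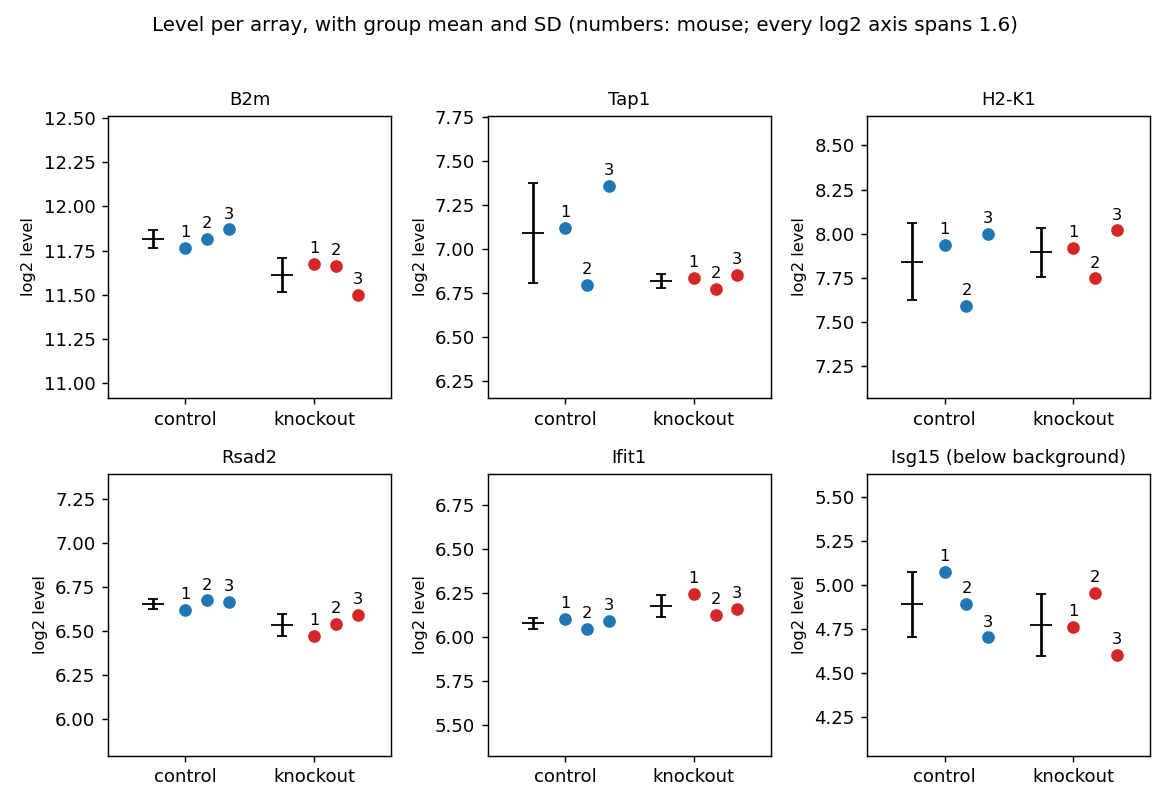
Log2 level per array (vertical axes, each spanning 1.6 log2 units) of B2m, Tap1, H2-K1, Rsad2, Ifit1 and Isg15 in 3 control and 3 knockout mice, with the group mean and SD as bars. The knockout points lie below the control points for B2m and Rsad2 and above them for Ifit1, by small steps, and the groups overlap in the other 3 genes.

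In the class I pathway 4 of 6 measured genes were higher and 2 lower (median log2 fold change 0.04). B2m encodes beta-2-microglobulin, the small chain that every classical class I molecule needs to reach the cell surface. Its levels were 11.76, 11.81 and 11.87 in control and 11.67, 11.66 and 11.50 in knockout muscle. Each knockout mouse lay below every control mouse, and B2m had the lowest unadjusted p of the 37 members (0.0679). The mean was 13.2% lower (log2 fold change −0.20, SE 0.10, interval −0.43 to 0.02, limma adjusted p = 0.653). An exact permutation test (two-sided) returned p = 0.1, the floor for 3 against 3 arrays, which non-overlapping groups always give. Knockout 3 lay lowest, and without it the log2 fold change was −0.15.

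Tap1, a subunit of the peptide transporter that feeds class I molecules, had levels of 7.12, 6.80 and 7.36 in control and 6.83, 6.77 and 6.85 in knockout muscle (log2 fold change −0.27, interval −0.60 to 0.05, adjusted p = 0.703). Control 2 lay among the knockout mice. Without control 2 the log2 fold change was −0.42 and the adjusted p 0.409, and without control 3 it was −0.14. Its partner Tap2 went the other way in value, with 0.06 (interval −0.21 to 0.33). Tapbp (tapasin), which bridges the transporter and the class I molecule, had levels of 7.79, 7.89 and 8.06 in control and 8.08, 7.97 and 7.79 in knockout muscle (log2 fold change 0.04). Its second probe set had 0.01 and the one shared with Zbtb22 had −0.08.

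Nlrc5, the transactivator of class I genes, had the highest log2 fold change of the antigen presentation group, 0.15 (interval −0.16 to 0.46, adjusted p = 0.855). H2-K1, a classical class I heavy chain, had levels of 7.93, 7.59 and 7.998 in control and 7.92, 7.75 and 8.02 in knockout muscle, with overlapping groups (log2 fold change 0.05, interval −0.25 to 0.36). Class I heavy chains are alike in sequence, so probes for H2-K1 may pick up relatives. The probe set that H2-D1 shares with H2-Q2 had −0.03. So the class I genes had no common direction, with B2m and Tap1 lower in value and Tap2, Tapbp, Nlrc5 and H2-K1 higher.

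In the class II group the spread between mice of 1 genotype was larger than the difference between genotypes. H2-Aa, the alpha chain of the I-A class II molecule, had levels of 7.71, 6.73 and 7.03 in control and 7.47, 7.09 and 6.92 in knockout muscle. H2-Ab1, its beta chain, had 8.16, 7.22 and 7.58 in control and 7.86, 7.33 and 7.33 in knockout muscle. H2-Eb1, the beta chain of the I-E molecule, had 7.17, 6.86 and 6.68 in control and 6.92, 6.91 and 6.71 in knockout muscle. In all 3 genes control 1 was highest and knockout 1 second.

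The probe set that Cd74, the invariant chain which guides class II molecules to the endosome, shares with Mir5107 showed the same order at the top. Its levels were 9.05, 7.88 and 8.17 in control and 8.88, 8.29 and 8.09 in knockout muscle (log2 fold change 0.05, interval −0.75 to 0.86). From the lowest to the highest array H2-Aa spanned 1.98-fold and H2-Ab1 1.91-fold. Of all genes 97.6% had a smaller SD within groups than H2-Aa and 97.3% a smaller one than H2-Ab1. The log2 fold changes between genotypes were 0.0037 for H2-Aa (interval −0.55 to 0.56, limma adjusted p = 0.998), −0.15 for H2-Ab1 (interval −0.69 to 0.40, adjusted p = 0.935) and −0.05 for H2-Eb1 (interval −0.37 to 0.26, adjusted p = 0.964). For H2-Ab1 the sign rested on control 1, without which the log2 fold change was 0.10. Ciita, the class II transactivator, did not share the order of the mice, with 6.13, 6.34 and 6.17 in control and 6.14, 6.29 and 6.16 in knockout muscle. Its mean of 6.21 lay within 0.5 of background, where differences between mice may not show.

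**Figure D4:**
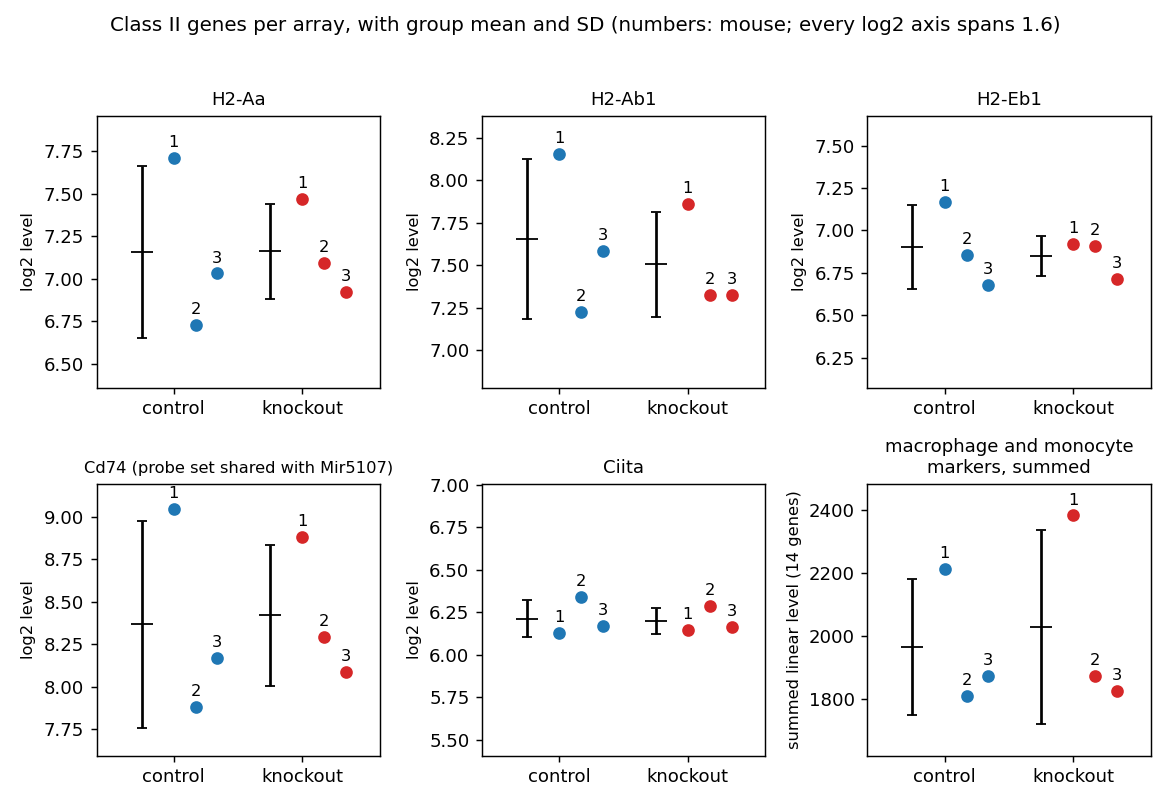
Log2 level per array (vertical axes, each spanning 1.6 log2 units) of H2-Aa, H2-Ab1, H2-Eb1, the probe set shared by Cd74 and Mir5107, and Ciita, and the summed linear level of 14 macrophage and monocyte markers, in 3 control and 3 knockout mice with the group mean and SD. Control 1 and knockout 1 are the highest arrays in the 3 H2 genes, the Cd74 panel and the marker panel, but not for Ciita.

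Markers of the cells that carry class II molecules were read on the same arrays. Of 14 macrophage and monocyte markers 12 lay above background, 0 were called and 0 had an unadjusted p under 0.05, and their summed linear levels were 1810 to 2211 in control and 1826 to 2382 in knockout muscle. Knockout 1 (2382) and control 1 (2211) were the highest of the 6 arrays, as in the class II genes. Csf1r, the growth factor receptor of macrophages, had 7.61, 7.18 and 7.11 in control and 7.65, 7.17 and 7.10 in knockout muscle. Ctss, the protease that trims the invariant chain, had 7.74, 6.92 and 7.06 in control and 7.43, 7.08 and 7.06 in knockout muscle. In bulk RNA fewer cells of a type and less RNA per cell cannot be told apart, and the part of macrophage content in the class II values was not tested.

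Dendritic cell markers had 3 of 8 genes above background and summed levels of 578 to 725 in control and 665 to 691 in knockout muscle. The 5 below background were Itgax, Flt3, Xcr1, Batf3 and Siglech. Of 7 B cell markers 1 lay above background, with sums of 269 to 287 and 278 to 280, and Ms4a1 and Cd79a lay below. Of 13 T and NK cell markers 1 lay above, with sums of 413 to 436 and 408 to 418. Endothelial markers lay above background in 8 of 8 cases, with sums of 2700 to 3432 and 2953 to 3073. Neutrophil markers had 2 of 7 above, with sums of 253 to 279 in control and 267 to 317 in knockout muscle. Of 5 fibro-adipogenic markers all lay above, with sums of 6034 to 7261 and 4451 to 7613. None of these markers was called, nor any of muscle fibres, and 3 had an unadjusted p under 0.05: Myh1 (log2 fold change −0.49), S100a8 (0.37) and S100a9 (0.51), the latter pair below background.

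The promoters of class II genes carry a common module that ends in the Y box, bound by the factor NF-Y. Stretches of H2-Aa and H2-Eb1 are shown because these genes shared the order of the mice, with ATTGG, searched on both strands, in capitals and each stretch ending 1 base before the gene start (RefSeq, GRCm38.p6).
H2-Aa, chr17:34287824-34287923, minus strand: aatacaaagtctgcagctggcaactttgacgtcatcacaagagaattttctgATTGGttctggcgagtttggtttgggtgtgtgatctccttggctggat
H2-Eb1, chr17:34305767-34305866, plus strand: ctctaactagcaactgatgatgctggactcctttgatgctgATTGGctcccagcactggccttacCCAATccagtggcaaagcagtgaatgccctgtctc
The letters begin 48 bases before the start in H2-Aa and 59 bases in H2-Eb1, which holds a further copy on the opposite strand. All 7 antigen presentation members with a window held ATTGG, against 8 of 22 interferon response members (36.4%) and 41.1% of all genes. Because these are only 5 letters, a match is frequent by itself.

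Other genes of the pathway were read from lists by function. Of 15 interferon ligands and receptors 6 were higher and 9 lower (median log2 fold change −0.0093), and 0 were called. The receptor chains Ifnar1, Ifnar2, Ifngr1 and Ifngr2 were well above background, with log2 fold changes of −0.03 to 0.07, and Ifnlr1, a chain of the lambda interferon receptor, lay below it at a mean of 5.24. Ifnar1 was at 7.99, 7.92 and 8.03 in control and 8.09, 8.05 and 8.01 in knockout muscle (log2 fold change 0.07, interval −0.14 to 0.27). Ifngr1 was at 9.13, 9.17 and 9.25 in control and 9.26, 9.02 and 9.18 in knockout muscle (log2 fold change −0.03). The ligands Ifnb1, Ifng, Ifna2 and Ifnk lay below background. Ifna1, Ifna4, Ifnl2 and Ifnl3 lay above it, at mean levels of 7.86, 7.33, 7.75 and 6.51, and genes of these families are alike in sequence, so their probes may pick up relatives. Ifne, a ligand of the female reproductive tract, had an unadjusted p of 0.0202 (log2 fold change 0.36, limma adjusted p = 0.512), with every value below background.

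Of 13 genes of JAK-STAT signalling and its brakes 4 were higher and 9 lower, with a median of −0.06, 0 called and 0 with an unadjusted p under 0.05. Jak1, the kinase of both receptors, was at 10.50, 10.42 and 10.53 in control and 10.51, 10.32 and 10.31 in knockout muscle (log2 fold change −0.10, interval −0.33 to 0.13). Of 13 genes of nucleic acid sensing 7 were higher and 6 lower, with a median of 0.02 and 0 called. Irf2bp2, a corepressor partner of Irf2, had an unadjusted p of 0.0403 (log2 fold change 0.41, adjusted p = 0.597), with 9.95 in knockout 3 and 9.05 to 9.40 on the other arrays.

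Of 36 other interferon-stimulated genes 11 were higher and 25 lower, with a median of −0.07, 0 called and 3 with an unadjusted p under 0.05 (8.33%, where all genes gave 8.04%). Gbp9 had levels of 7.30, 7.31 and 7.42 in control and 7.16, 7.09 and 6.92 in knockout muscle (log2 fold change −0.29, interval −0.52 to −0.05, limma adjusted p = 0.530). Rtp4, a receptor transporter protein, had 6.54, 6.42 and 6.72 in control and 6.22, 6.29 and 6.29 in knockout muscle (log2 fold change −0.29, adjusted p = 0.532). In both genes each knockout mouse lay below every control mouse, as in 6.65% of all genes. Gbp4 had the largest difference of the list, −0.65 (interval −0.91 to −0.38, adjusted p = 0.142), with 5.86, 5.68 and 5.90 in control and 5.29, 4.99 and 5.22 in knockout muscle, around and below background.

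Of 25 further genes of antigen processing 11 were higher and 14 lower, with a median of −0.05, 0 called and 3 with an unadjusted p under 0.05 (H2-T23, Rfxap and Nfyb). The immunoproteasome subunits, which cut peptides for class I molecules, had log2 fold changes of −0.05 (Psmb8, interval −0.28 to 0.18) and −0.21 (Psmb9, interval −0.48 to 0.05, mean below background). H2-T23, the mouse Qa-1 molecule read by NK cells, had levels of 5.69, 5.95 and 6.28 in control and 5.56, 5.54 and 5.41 in knockout muscle (log2 fold change −0.47, limma adjusted p = 0.447), with its mean below background. Rfxap, a subunit of the factor that binds class II promoters beside the Y box, had −0.33 (interval −0.60 to −0.06, adjusted p = 0.530). Nfyb, a subunit of the Y box factor, had 0.34 (interval 0.02 to 0.65, adjusted p = 0.598). Both had non-overlapping groups, which 13.4% of all genes had, in opposite directions.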

How the data were processed

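RNA of 6 muscles was measured on Affymetrix arrays. The deposited values are log2 probe set levels, 41345 per array, with RMA, oligo and limma named in the submitters' processing notes. The sources used here give neither version nor order. RMA makes array distributions alike and compresses differences of dim genes. Scan batches were not analysed here. The number of arrays limits the precision.

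Symbols came from GEO's platform annotation: 23521 probe sets had 1 symbol, 1814 several and 16010 none. Entrez identifiers of 23328 were found in RefSeq, and 0 symbols differed. Tests used limma 3.58.1 (R 4.3.3: lmFit, eBayes, two-sided, no filter, group means) and matplotlib 3.10.9 in Python 3.11.15. This fit was checked on simulated data, in 5 runs with 200 changed genes each. It called 52.8% of the 1.5-fold, 98.8% of the 2-fold and 100% of the 4-fold changes, and 7.16% of its calls were false. The real data gave only 21 calls, fewer than the simulated data. With fewer calls the Benjamini-Hochberg cutoff is stricter, so these shares overstate what could be called here. Older symbols in lists were matched through RefSeq synonyms. Named in full were members with the 3 highest levels or 3 largest differences in each group, called members and those with an unadjusted p under 0.05; the rest, by group, are examples. Other list genes are named if fixed or with such a p; Csf1r, Ctss and others were chosen after their values were seen. Members and lists were chosen with earlier results of these data known. Alternatives were normalizations, filters, variance models, array weights, probe set choice, a replicate block and leaving out arrays.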

Additional observations from a re-analysis of the deposited data

How the results depend on the processing

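No member was called in the main fit or in any of the 16 alternatives, counting each left-out array as 1. Over all genes the count of calls was 21, and it was 53 with genes above the median level only, 45 with genes above background only, 36 with an intensity trend and robust prior, 0 without variance moderation (1612 at an unadjusted p under 0.05), 6 with every probe set tested (added after seeing the data) and 2 to 11 without 1 array. Members with an unadjusted p under 0.05 were B2m with the intensity trend, B2m and Rsad2 without moderation, Mx1 with the replicate block or without knockout 3, Irf9, Mx1 and Tap1 without control 2, and Oasl2 without knockout 1. The interferon response median was −0.041 without control 2 and −0.041 to −0.0025 over the left-out arrays, and the antigen presentation median −0.07 to 0.08. Signs turned for Ifi35 with quantile normalization (0.0068) or the mean over probe sets (0.039), and for Ifih1 with median centring (−0.0012) or array weights (−0.033). Over the left-out arrays the log2 fold change was −0.36 to 0.10 for H2-Ab1, −0.072 to 0.13 for H2-K1, −0.031 to 0.017 for Ifi35, −0.13 to 0.13 for Ifih1, −0.12 to 0.0018 for Irf2 and −0.031 to 0.11 for Tapbp, so these small values have no settled sign. The cause was not tested. B2m, Tap1, Mx1, Oas2 and Oasl2 stayed lower in every alternative that tested them.

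Same-numbered control and knockout mice deviated from their group means with correlations of 0.08, 0.21 and −0.07. Differently numbered mice had −0.22 to 0.14, so the value of 0.21 was the highest. The replicate numbers were not taken as pairs, and these values do not settle whether they are. With the replicate number as a block 17 genes and 0 members were called. Genes near background cannot show their true difference on these arrays.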

Other observations

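Guanylate binding proteins and immunity-related GTPases, which interferon gamma induces, were lower in value in knockout muscle in 7 of 8 cases among the further interferon-stimulated genes. Of all 22180 genes 11103 were lower. The mean levels of 3 of the 8, Gbp4, Gbp5 and Gbp6, lay below background. Igtp had levels of 7.21, 6.55 and 7.18 in control and 6.74, 6.42 and 6.59 in knockout muscle (log2 fold change −0.40, interval −0.82 to 0.02, limma adjusted p = 0.645), and control 2 lay among the knockout mice. Gbp7 had 8.02, 7.47 and 7.84 in control and 7.82, 7.25 and 7.25 in knockout muscle (log2 fold change −0.33, adjusted p = 0.736). Irgm2 had −0.14 and Irgm1 −0.03, while Gbp3, a member counted in the report and not among the 8, had 0.03 and the dim Gbp6 0.18. None of these genes was called, and they were picked after their values were seen. Control 2 had the lowest control value of Igtp, Gbp7, Irgm2, Tap1, Irf9 and H2-K1, and knockout 2 the lowest knockout value of the same genes except Gbp7. These genes were named after their values were seen, and the share of all genes with this order was not counted. In B2m, Rsad2, Oas2 and Irf7 neither control 2 nor knockout 2 was lowest in its group.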
